A study of Homo sapiens with 8 samples.

Results

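The transcriptional response of BE2C cells to 24 h of GSK-J4 was described across 17687 of the 17687 genes measured in the series. BE2C is an established human neuroblastoma line with amplified MYCN, grown in culture. The comparison set 2 arrays from cells given GSK-J4 against 2 arrays from cells given its vehicle, 0.1% DMSO, out of 8 arrays in the series, and both groups were taken at 24 h. GSK-J4 was labelled as given at 2.5 mM. Cell culture doses in the study's methods are micromolar, which leaves the labelled unit open to doubt. The remaining arrays came from BE2C cells 48 h after 30 nM control siRNA or KDM6B siRNA and entered only through the shared estimate of spread. Replicates are called biological in the labels, nothing says that they were separate cultures, and all come from 1 cell line, so p-values measure the spread between these arrays. Members were all transcript probe sets with a single gene symbol, and the probe set with the highest mean stood for a gene that had several. Values are log2 expression on Affymetrix Clariom S arrays, as deposited, so a difference of 1 is a doubling.

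An ester that enters cells, GSK-J4 is converted there to GSK-J1, an inhibitor of the KDM6 histone demethylases KDM6B and KDM6A. These enzymes remove methyl groups from lysine 27 of histone H3, the repressive mark written by polycomb repressive complex PRC2, and like other JmjC enzymes they need iron and 2-oxoglutarate. Several gene programmes in the results are known from cellular stress. Metallothioneins bind zinc and copper and are switched on by the zinc-sensing factor MTF1. The integrated stress response slows translation through phosphorylated eIF2α and raises the transcription factor ATF4, which drives amino acid uptake and synthesis. The unfolded protein response serves the endoplasmic reticulum (ER), and hypoxia-inducible factors (HIF) drive genes of low oxygen.

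Promoter sequences are shown for genes from the groups that held the main rises and falls, together with a motif that each group is known for. They are from RefSeq on GRCh38.p14, run 5′ to 3′ on the strand of the gene, and hold 250 bases before the transcription start and 20 bases after it. In the metallothionein promoters the capitals mark the core of the metal response element bound by MTF1, searched as TGCACNC and TGCGCNC on both strands. MT2A, MT1H and MT1B lie within 1 cluster, at chr16:56608334-56608603, chr16:56669564-56669833 and chr16:56651636-56651905 (+ strand).
MT2A: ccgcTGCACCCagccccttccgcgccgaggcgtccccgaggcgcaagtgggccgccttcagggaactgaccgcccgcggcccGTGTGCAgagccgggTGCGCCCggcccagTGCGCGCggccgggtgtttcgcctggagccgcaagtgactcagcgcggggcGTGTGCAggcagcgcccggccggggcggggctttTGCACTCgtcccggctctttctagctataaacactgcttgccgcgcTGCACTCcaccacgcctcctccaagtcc
MT1H: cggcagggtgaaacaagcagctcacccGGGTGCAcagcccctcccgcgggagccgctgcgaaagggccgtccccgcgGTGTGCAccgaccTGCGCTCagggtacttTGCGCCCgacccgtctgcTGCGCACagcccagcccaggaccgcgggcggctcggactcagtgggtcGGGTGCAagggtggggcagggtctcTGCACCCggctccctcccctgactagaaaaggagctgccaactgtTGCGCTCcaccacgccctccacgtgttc
MT1B: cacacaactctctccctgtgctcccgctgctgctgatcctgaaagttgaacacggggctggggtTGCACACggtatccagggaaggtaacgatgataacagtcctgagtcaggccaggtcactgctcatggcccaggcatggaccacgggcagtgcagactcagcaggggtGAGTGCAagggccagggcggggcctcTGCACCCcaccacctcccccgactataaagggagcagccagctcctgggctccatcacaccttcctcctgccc

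CHAC1, shown as a target of ATF4, lies at chr15:40953221-40953490 (+ strand), and the capitals mark the C/EBP-ATF element, searched as TGATGCAA and TGATGAAA on both strands. Among 12 promoters of integrated stress response genes that rose, that of CHAC1 was the only 1 with this element. XBP1 lies at chr22:28800550-28800819 (- strand), and the capitals mark the ER stress element, CCAAT and CCACG at a fixed spacing.
CHAC1: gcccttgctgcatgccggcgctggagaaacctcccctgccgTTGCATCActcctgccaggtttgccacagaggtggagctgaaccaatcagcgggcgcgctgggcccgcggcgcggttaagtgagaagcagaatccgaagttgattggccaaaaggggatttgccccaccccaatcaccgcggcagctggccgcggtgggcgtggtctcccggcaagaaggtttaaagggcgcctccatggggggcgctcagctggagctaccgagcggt
XBP1: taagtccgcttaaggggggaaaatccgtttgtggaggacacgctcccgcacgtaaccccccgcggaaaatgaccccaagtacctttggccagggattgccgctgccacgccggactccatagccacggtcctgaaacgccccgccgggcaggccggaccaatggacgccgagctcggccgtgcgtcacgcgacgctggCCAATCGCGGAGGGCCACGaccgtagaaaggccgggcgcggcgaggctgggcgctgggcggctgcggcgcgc

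Of the genes in the mitotic lists with the promoter motifs below, CEP55, at chr10:93496362-93496631, and CENPA, at chr2:26785806-26786075 (both + strand), fell most. Their promoters hold the cell cycle homology region TTTGAA, bound by the LIN54 subunit of the DREAM and MuvB complexes, and the CCAAT box, bound by NFY. The capitals mark these motifs on either strand.
CEP55: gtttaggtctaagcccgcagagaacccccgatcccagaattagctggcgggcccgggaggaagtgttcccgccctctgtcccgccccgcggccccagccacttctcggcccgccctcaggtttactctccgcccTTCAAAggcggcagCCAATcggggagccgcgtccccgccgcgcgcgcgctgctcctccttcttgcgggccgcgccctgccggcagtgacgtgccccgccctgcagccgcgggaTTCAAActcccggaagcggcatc
CENPA: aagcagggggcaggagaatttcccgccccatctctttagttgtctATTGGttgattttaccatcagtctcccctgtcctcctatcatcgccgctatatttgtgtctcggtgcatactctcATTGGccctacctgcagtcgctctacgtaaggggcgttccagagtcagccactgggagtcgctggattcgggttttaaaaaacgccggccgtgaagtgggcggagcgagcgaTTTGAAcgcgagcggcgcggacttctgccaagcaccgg

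The 4 arrays were close to each other in scale and quality. Medians over transcript probe sets were 6.17 to 6.20, and 73.4% to 77.1% of genes lay above the 95th percentile of the 612 negative control probe sets. Replicates correlated across genes with r = 0.995 for GSK-J4 and 0.994 for DMSO, and genes more than 1 log2 apart numbered 6 between the GSK-J4 arrays and 8 between the DMSO arrays. They numbered 906 between the KDM6B siRNA arrays, which share the fit's estimate of spread. Of 7 adrenergic neuroblastoma markers 7, among them PHOX2A, HAND2, GATA3 and MYCN, were above background on all 4 arrays, while 0 of 3 blood cell markers were. Of markers of other cells, 2 of 2 for Schwann cell precursors, 3 of 4 for fibroblasts and 1 of 2 for endothelium were above background on all 4 arrays, and none of them passed. Since most genes were above background, these counts do not by themselves identify the cells. The drug targets were measured but did not pass by limma on 8 arrays. Both GSK-J4 arrays lay above both DMSO arrays for each, as for 25.5% of all genes. KDM6B stood at 9.41 and 9.18 with GSK-J4, against 8.17 and 8.47 with DMSO (difference 0.98, SE 0.39, limma adjusted p = 0.25), and KDM6A at 6.86 and 7.05 with GSK-J4, against 6.75 and 6.56 with DMSO (0.30, SE 0.16, adjusted p = 0.398). As bulk arrays brought to a common scale, they cannot tell fewer cells expressing a gene from less RNA per cell.

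Among genes that passed, more rose than fell with GSK-J4. By limma with Benjamini-Hochberg adjustment 654 genes passed, 3.7% of those tested, of which 405 rose (2.29%) and 249 fell (1.41%). On all 654 the arrays of the groups did not overlap, which was also true of many genes that did not pass: both GSK-J4 arrays lay above both DMSO arrays for 25.5% of genes and below them for 28.6%. The excess of rises was not seen by every measure, since the methods' t-test gave 1636 rises and 1688 falls at an unadjusted p under 0.05, and after median centring 4811 genes lay higher and 4774 lower without overlap. Of the genes that passed, 154 rose and 49 fell by at least 1 log2, 32 rose and 1 fell by at least 2, and 11 rose and 0 fell by at least 3, as measured. At 2 or more, 5 of the 32 rises and the single fall were not above background in the lower group, so that their size is known only as a bound. The median size was 0.89 among rises and -0.76 among falls, while the median difference over all genes was -0.02 and the 5th and 95th percentiles were -0.48 and 0.53.

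Rises outnumbered falls at every level of the mean over the 4 arrays. Among genes with a mean below 4, near background, 6 rose and 2 fell, and from 4 to 6 it was 44 and 32. From 6 to 8 it was 189 and 101, from 8 to 10 it was 142 and 102, and at 10 or above 24 and 12. Grouped by the DMSO mean instead, falls outnumbered rises at high levels. There 106 rose and 129 fell from 8 to 10, and 10 rose and 20 fell at 10 or above. Below 8 rises were more frequent, with 201 and 82 from 6 to 8, 74 and 18 from 4 to 6, and 14 and 0 below 4.

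**Figure D1:**
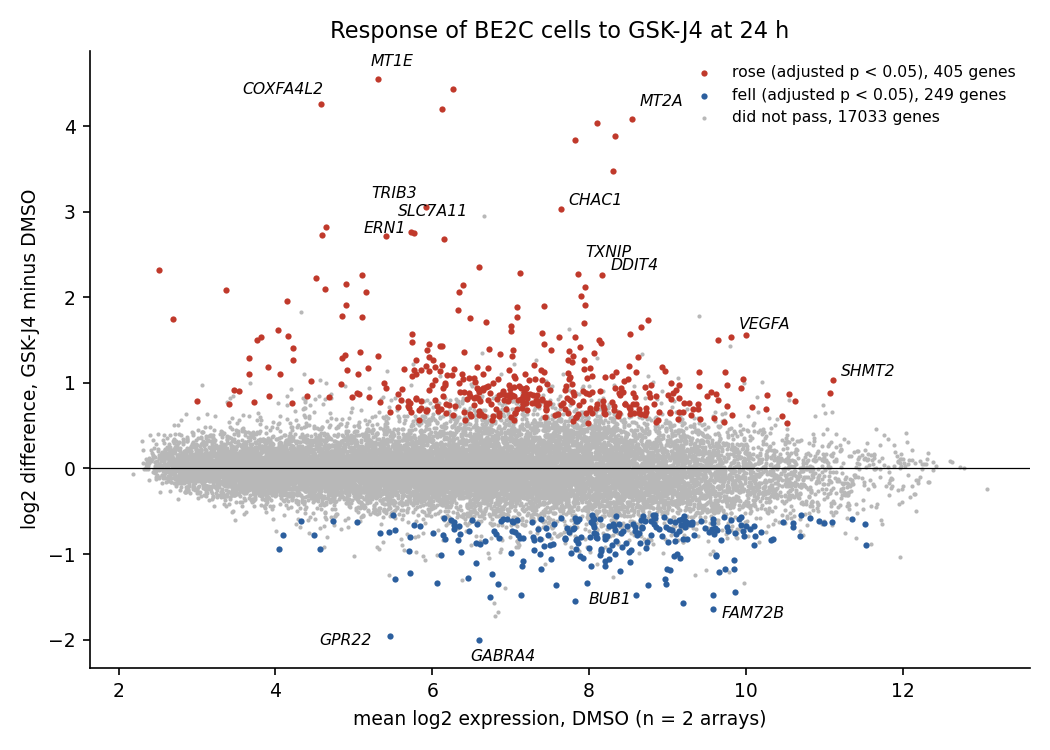
Each point is a gene, with its mean log2 expression on the 2 DMSO arrays on the x axis and its log2 difference, GSK-J4 minus DMSO, on the y axis. Red points are the 405 genes that rose, blue the 249 that fell and grey those that did not pass; measured differences of called genes run from -2.0 to 4.56, and SLC7A11 is a grey point at 2.95.

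The count of calls depended on the arrays that set the spread. Without 1 of the GSK-J4 arrays 72 rose and 5 fell (replicate 1) or 52 and 3 (replicate 2), and without 1 of the DMSO arrays 67 rose and 11 fell (replicate 1) or 69 and 4 (replicate 2). Without either control siRNA array 154 rose and 43 fell, and without either KDM6B siRNA array 1320 rose and 1217 fell. With the 4 arrays of this comparison alone 1038 rose and 870 fell, and all 654 genes were among them.

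Metallothionein genes had the largest measured rises in the data set, and 8 of the 10 largest were theirs. MT1E stood at 9.88 and 9.86 on the GSK-J4 arrays, against 5.62 and 5.01 on the DMSO arrays, a 23.5-fold rise (log2 4.56, SE 0.19, adjusted p = 1.70e-05). MT1F had 10.67 and 10.73, against 6.46 and 6.06 with DMSO (21.6-fold), and MT1H 10.36 and 10.30, against 6.21 and 6.04 (18.5-fold). MT2A, the most abundant form in many human cells, had 12.66 and 12.61 with GSK-J4, against 8.70 and 8.38 with DMSO (17.0-fold, log2 4.09, SE 0.17). The groups did not overlap in any of these genes. MT1X (4.04), MT1L (3.89), MT1G (3.84) and MT1B (3.48) followed, and MT1M rose least, with 9.36 and 9.47 against 7.14 and 7.11 with DMSO (4.89-fold).

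The 9 genes lie together on chromosome 16 (GRCh38.p14), and the groups overlapped in their neighbour MT3, the brain form: 6.79 and 6.22 with GSK-J4, against 6.70 and 6.42 with DMSO (difference -0.05, not passed). SLC30A1, the zinc exporter of the plasma membrane and also an MTF1 target, rose at 8.93 and 9.0, against 7.0 and 7.16 (log2 1.89, SE 0.16, adjusted p = 0.00112). MTF1 itself differed by 0.21 (adjusted p = 0.612), and no other zinc transporter passed, with SLC39A1, an importer, lowest at -0.49 and SLC30A10 at 0.26. Of 27 listed metallothioneins and zinc transporters 10 rose and 0 fell (list median 0.21), against 2.29% and 1.41% of all genes. Metallothioneins are close paralogs whose probe sets may bind each other's transcripts, which was not examined.

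Stress genes of the amino acid response formed the next group, while 2.29% of all genes rose and 1.41% fell. Of 24 kinases, factors and effectors of the integrated stress response 13 rose and 0 fell (median 0.83, against -0.02 over all genes). TRIB3, a pseudokinase induced by ATF4 and CHOP, stood at 8.88 and 9.09 with GSK-J4, against 6.06 and 5.79 with DMSO (8.35-fold, SE 0.21 log2, adjusted p = 0.000427). CHAC1, which breaks down glutathione, stood at 10.67 on both GSK-J4 arrays, against 7.73 and 7.55 (8.16-fold, SE 0.52 log2, adjusted p = 0.0225). DDIT3, which encodes the transcription factor CHOP, had 8.46 and 8.60, against 6.49 and 6.29 (4.41-fold). The same group held the secreted factors INHBE (2.26), STC2 (2.01) and GDF15 (1.44), and PPP1R15A, the phosphatase subunit that ends eIF2α phosphorylation (1.48). ATF3 (0.80), CEBPG (0.89) and JDP2 (0.83), basic leucine zipper partners, rose less. ATF4 mRNA, whose product is controlled mainly by translation, was at 10.87 and 11.07 with GSK-J4, against 10.22 and 10.06 with DMSO, without passing (0.83, adjusted p = 0.141).

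Genes of amino acid supply rose as well, where the shares over all genes were 2.29% risen and 1.41% fallen. Of 23 amino acid transporters 7 rose and 0 fell (median 0.21): SLC7A3, a carrier of arginine and lysine, stood at 7.23 and 7.42 with GSK-J4, against 4.66 and 4.52 with DMSO, where 1 of 2 arrays was above background (6.63-fold). SLC1A4, a carrier of alanine, serine and cysteine, was above background only with GSK-J4, at 6.73 and 6.75 against 4.30 and 4.74, and so was at least 3.96-fold higher. SLC6A9, a glycine carrier, rose by 1.60, SLC43A1 by 1.05, SLC7A5 by 0.87, SLC1A5 by 0.76 and SLC7A1 by 0.74. Of 16 cytosolic aminoacyl-tRNA synthetases WARS1 (1.56), AARS1 (0.94) and SARS1 (0.86) rose and 0 fell (median 0.44), while of 15 mitochondrial ones 0 rose and MARS2 fell by 0.54 (median -0.06). Of 22 enzymes of serine, one-carbon and non-essential amino acid synthesis 5 rose and 0 fell (median 0.67). The mitochondrial enzymes ALDH1L2 and SHMT2 rose by 1.31 and 1.03, and SHMT2 stood at 12.14 and 12.15 with GSK-J4, against 11.11 and 11.12 with DMSO. PSPH, the last step of serine synthesis, rose by 0.86, ASS1, of arginine synthesis, by 0.89 and GOT1 by 0.69. ARG2, the mitochondrial arginase, had 8.41 and 8.58, against 5.70 and 5.77 (6.78-fold, adjusted p = 3.39e-05).

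Sensors, chaperones and disposal genes of the ER were among the rises, which took in 2.29% of all genes. ERN1, which encodes the sensor IRE1α, stood at 8.56 and 8.49 with GSK-J4, against 5.72 and 5.82 with DMSO (6.76-fold, SE 0.18 log2, adjusted p = 0.000306). XBP1, the transcript that IRE1α splices, had 10.01 and 10.07, against 9.16 and 8.93 (1.99-fold). ATF6, another sensor, rose by 0.91 and CREB3L2 by 1.05. Of the 25 sensors and chaperones 7 rose and 0 fell (median 0.17), among them the chaperone HYOU1 (0.79) and the co-chaperones of BiP DNAJC3 (0.70) and DNAJB9, the last with 9.85 on both arrays against 7.98 and 7.92 (3.75-fold). BiP itself, HSPA5, differed by 0.35 and did not pass (adjusted p = 0.197). In ER-associated degradation the ubiquitin ligase SYVN1 (1.08) and its partners SEL1L (1.58) and HERPUD1 (1.5) rose with EDEM1 (1.57), which selects misfolded glycoproteins, and 5 of 26 rose with SEC24D (0.76), 0 fell and the median was 0.32.

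Genes of low oxygen rose in part, against 2.29% of all genes. COXFA4L2, a mitochondrial protein of the low oxygen response with the older symbol NDUFA4L2, was above background only with GSK-J4, at 8.76 and 8.92 against 4.46 and 4.69 with DMSO, and so at least 17.0-fold higher (adjusted p = 1.70e-05). BHLHE40, a transcriptional repressor, stood at 8.90 and 8.76, against 6.12 and 6.18 (6.40-fold). VEGFA, the vascular growth factor, had 11.39 and 11.30, against 9.85 and 9.78 (2.90-fold). These genes showed no overlap between arrays of the groups. Collagen prolyl hydroxylases P4HA2 (2.06) and P4HA1 (1.03), the mitophagy receptor BNIP3L (1.05) and NDRG1 (1.09) also rose. In the list of HIF targets outside glycolysis 9 of 24 genes rose and 0 fell (median 0.65). The 24 also include HIF1A, EPAS1, ARNT and VHL, genes of HIF and its regulator, which did not pass. Targets in the list that did not pass ran from HILPDA at -0.39 to STC1 at 1.34. Of 23 genes of glycolysis and glucose uptake only PDK1 (1.45), PFKFB3 (1.09) and PFKP (0.98) rose (0 fell, median 0.28), and LDHA, a standard HIF target, was lower at -0.31 without passing. HIF1A mRNA differed by -0.25 (adjusted p = 0.332).

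**Figure D2:**
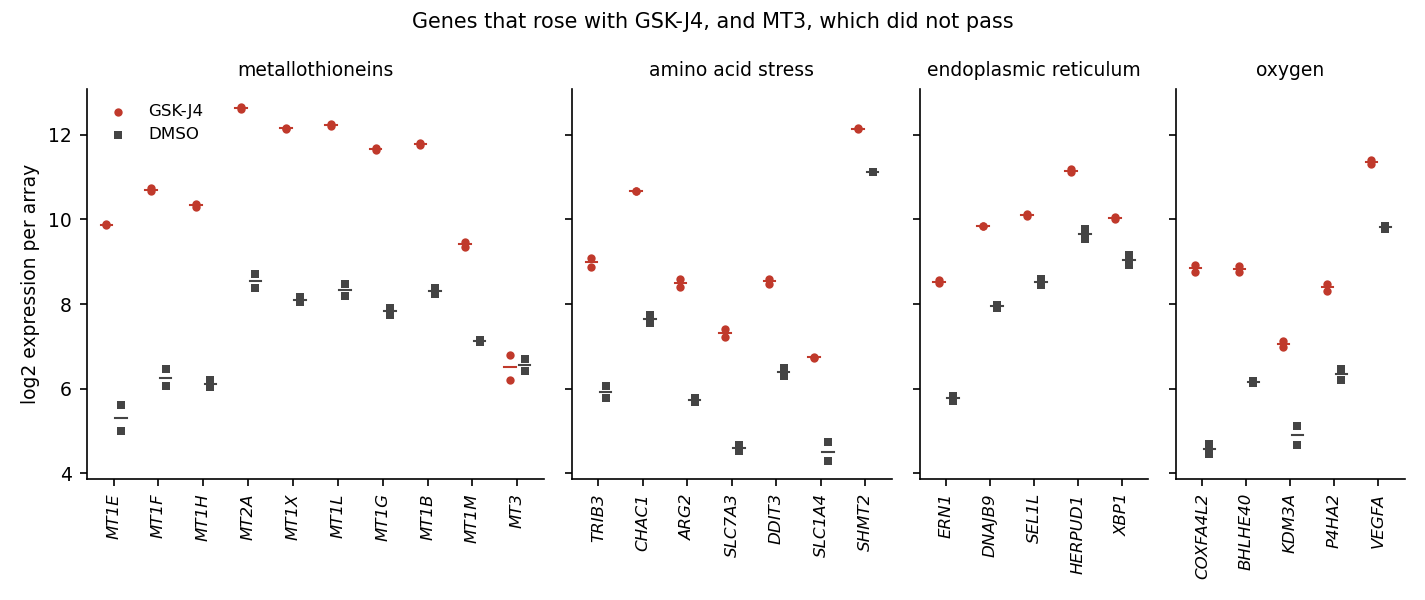
Points are log2 expression on single arrays, with GSK-J4 (red circles) left of DMSO (dark squares) for each gene and a line at each mean of 2 arrays. The groups do not overlap in any gene but MT3, and the metallothioneins that rose lie between 9.36 and 12.66 with GSK-J4, against 5.01 to 8.70 with DMSO.

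In the 4 lists of mitotic genes some fell, each by less than 1.5 log2, and 0 rose, against 1.41% and 2.29% of all genes. With the 4 arrays of the comparison alone 21 kinesin and spindle genes, 14 kinase and checkpoint genes, 11 kinetochore genes and 14 cyclin and anaphase genes fell, and 1 rose in each of the first and last lists. Over all 17687 genes 870 fell and 1038 rose on those arrays. Of 28 kinesins and spindle proteins 7 fell and 0 rose (median -0.71), with both GSK-J4 arrays below both DMSO arrays for 27 of them, against 28.6% over all genes. CEP55, needed for the final cut of cell division, stood at 5.80 and 5.53 with GSK-J4, against 7.21 and 7.06 with DMSO (2.78-fold lower, SE 0.23 log2, adjusted p = 0.0151). DLGAP5, a microtubule-binding spindle protein, had 8.53 and 8.60, against 9.65 and 9.82 (2.25-fold lower). TACC3, which stabilises kinetochore fibres, fell by 1.05, the motor genes CENPE by 1.02 and KIF14 by 0.96, and KIF11, the motor that separates spindle poles, by 0.69. The exception by direction was NUMA1, which organises spindle poles, at 0.45 without passing.

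The spindle checkpoint and its kinases gave 6 falls and 0 rises among 23 genes (median -0.58). BUB1, a checkpoint kinase, stood at 7.13 and 7.10 with GSK-J4, against 8.67 and 8.51 with DMSO (2.79-fold lower, SE 0.12 log2, adjusted p = 0.000788). SGO2, which shields centromeric cohesion, fell by 1.18, AURKA, a centrosomal kinase, by 0.90, BUB1B by 0.76, BIRC5 by 0.69 and TPX2 by 0.67. AURKB, the partner of BIRC5 in the chromosomal passenger complex, was at 8.38 and 8.29, against 9.25 and 9.14, and did not pass (-0.86, adjusted p = 0.122). Of 31 kinetochore and centromere genes 4 fell and 0 rose (median -0.36). CENPA, the histone variant that marks centromeres, had 6.25 and 6.18, against 7.74 and 7.42 (2.57-fold lower), and its loading factor OIP5 fell by 0.88. The constitutive centromere genes CENPW and CENPO fell by 0.76 and 0.68. Nearby, ESCO2, which acetylates cohesin, fell by 0.93 and the condensin subunit gene NCAPG2 by 0.54 among 21 condensin and cohesin genes (0 rose, median -0.09).

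Of 31 mitotic cyclins, CDC25 phosphatases and members of the anaphase-promoting complex 4 fell and 0 rose (median -0.35). CCNB1, which encodes cyclin B1, stood at 8.44 and 8.48 with GSK-J4, against 9.64 and 9.69 with DMSO (2.31-fold lower, adjusted p = 0.0164). PTTG1, which encodes securin, fell by 1.02, UBE2S by 0.79 and the activator CDC20 by 0.74. CDKN3, a phosphatase that acts on CDK1 and CDK2 and is itself periodic, fell to 7.59 and 7.67, against 8.94 and 9.03 (2.56-fold lower).

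DNA synthesis genes lay lower by less. Of 49 genes of origin licensing and the replication fork 5 fell and 0 rose (median -0.34). The arrays did not overlap and were lower for 41, against 28.6% of all genes. With the 4 arrays of the comparison 18 fell and 2 rose, against 870 and 1038 of all 17687 genes. MCM10, which activates the helicase, stood at 6.32 and 6.37 with GSK-J4, against 7.36 and 7.24 with DMSO (1.94-fold lower), and the polymerase epsilon subunit POLE2 and the GINS subunits GINS1 and GINS4 fell by 0.81, 0.65 and 0.60. CDT1, a licensing factor, was the other way at 0.58 without passing. Of 23 nucleotide synthesis genes CTPS1, UMPS and RRM2 fell by 0.75, 0.70 and 0.62 (0 rose, median -0.32). Of 55 replication-dependent histone genes only H2BC3 fell by limma on 8 arrays, by 0.76, while 22 fell and 0 rose with the 4 arrays of the comparison (median -0.36). Of these histone genes 45 were lower without overlap, against 28.6% of all genes. H2BC10 (-1.25), H2AC4 (-1.18) and H2BC14 (-1.03) were among those that passed only with fewer arrays.

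**Figure D3:**
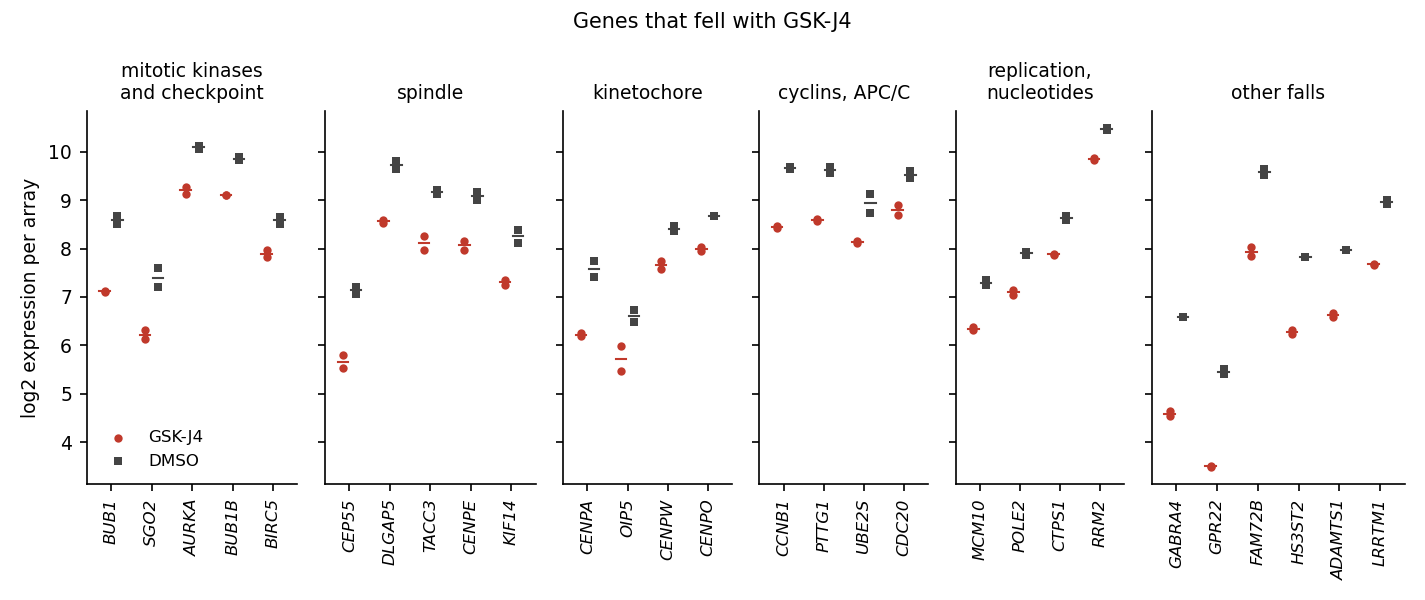
Points are log2 expression on single arrays, with GSK-J4 (red circles) left of DMSO (dark squares) and a line at each mean of 2 arrays. In every gene shown both GSK-J4 arrays lie below both DMSO arrays, by 0.62 to 2.0 on average.

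Of 21 G1 cyclins, kinases and E2F genes CDK2 fell by 0.61 and 0 rose by limma on 8 arrays (median -0.18). With the 4 arrays of the comparison 7 fell and 2 rose, against 870 and 1038 of all 17687 genes. The atypical E2F genes E2F8 and E2F7 differed by -0.81 and -0.51, CCNE2 by -0.74 and E2F5 by 0.70 without passing on 8 arrays, while CDK4 differed by -0.15, CDK6 by 0.52, CCND1 by -0.18, CCNE1 by -0.81 and E2F1 by 0.29, and these did not pass. CDKN1A, which encodes p21, stood at 6.96 and 7.06 with GSK-J4, against 6.06 and 5.65 with DMSO (2.23-fold, adjusted p = 0.0246), and CDKN1B, which encodes p27, at 9.49 and 9.40, against 8.86 and 8.89 (1.48-fold), so that 2 of 10 CDK inhibitors and pocket proteins rose and CDKN3 fell (median -0.20). RB1 differed by 0.06. MYCN, amplified in this line, stood at 11.81 and 11.88, against 12.16 and 12.12, without overlap. It did not pass by limma on 8 arrays (-0.30, SE 0.30, adjusted p = 0.702). That SE rests on the spread of all 4 groups, while SDs within the GSK-J4 and DMSO groups were 0.051 and 0.025. CCND1 was similar, with an SE of 0.23 and SDs of 0.019 and 0.015. Such a result does not show that these genes were unchanged. MXD1 and MXI1, which compete with MYC for MAX, rose by 0.74 and 0.63 (2 of 12 genes of that network, 0 fell, median -0.01). BUB1, BIRC5 and CDKN1A are among genes that the study names for GSK-J4, so their direction is not independent evidence.

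Of 26 genes linked to growth arrest and to FOXO factors 8 rose and 0 fell (median 0.38), against 2.29% and 1.41% of all genes. TXNIP, an arrestin-like inhibitor of thioredoxin and of glucose uptake, stood at 10.00 and 10.26 with GSK-J4, against 7.82 and 7.88 with DMSO (4.84-fold, adjusted p = 0.00484). Its relatives ARRDC4 and ARRDC3 rose by 1.77 and 1.30. KLF10 (1.65), GADD45G (1.39), TSC22D3 (1.38), the atypical cyclin CCNG2 (1.31) and the repressor HBP1 (1.17) completed the set. SESN1, a sestrin, was lower at -0.47 without passing, whereas SESN2, the sestrin induced by ATF4, rose by 1.4.

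Nutrient signalling and autophagy had few but sizeable changes, and 3.7% of all genes passed. DDIT4, an inhibitor of the growth kinase mTORC1, stood at 10.33 and 10.54 with GSK-J4, against 8.23 and 8.12 with DMSO (4.81-fold, adjusted p = 0.000188), and FNIP1, a partner of folliculin, rose by 0.65 (2 of 23 mTORC1 regulators rose, 0 fell, median 0.12). The autophagosome genes GABARAPL1 (1.71), WIPI1 (1.43) and MAP1LC3B (0.81) rose, the lysosomal gene CTSA fell by 0.73, and the remaining 29 of 33 did not pass (median 0.02). TFRC, the transferrin receptor and a gene often used as a stable control, had 10.87 and 10.86, against 9.73 and 9.72 (2.19-fold). It was the only one of 12 housekeeping genes to pass (list median -0.16).

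Metabolic, stress and RNA lists outside these programmes had 0 to 3 calls each, while 3.7% of all genes passed. FDPS, of the mevalonate pathway, stood at 9.39 and 9.52 with GSK-J4, against 10.27 and 10.12 with DMSO, and was the only call among 20 cholesterol genes (-0.75, list median -0.31). In lipid metabolism ELOVL6, which elongates fatty acids, fell by 0.68 and CPT1A, which feeds them to mitochondria, rose by 0.89 among 23 genes (median -0.16). HMOX1, haem oxygenase, rose by 0.68 and the peroxidase gene PRDX1 fell by 0.79 among 22 NRF2 and glutathione genes (median -0.08). The mitochondrial chaperone gene HSPE1 fell by 0.62 among 22 heat shock genes (0 rose, median -0.19), and UTP20, of ribosome assembly, by 0.71 among 32 (0 rose, median -0.16). RMI1, of the BLM complex, fell by 0.94 among 29 recombination and Fanconi genes (0 rose, median -0.24). In splicing CLK4, a kinase of SR proteins, rose by 1.38, the cold-inducible CIRBP rose by 0.54 and SRSF5 fell by 0.68 among 27 genes (median -0.21). Of 29 translation factors 0 passed by limma, 6 were higher and 3 lower at an unadjusted p under 0.05, and 2 rose with the 4 arrays (median 0.03). Of 18 mismatch and base excision repair genes 0 passed, 2 were higher and 2 lower at an unadjusted p under 0.05, and 2 fell with the 4 arrays (median -0.15). For comparison, 3008 of all 17687 genes had an unadjusted p under 0.05 by limma, and 1038 rose and 870 fell with the 4 arrays.

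Signalling targets moved in a few families, while 2.29% of all genes rose and 1.41% fell. Of 16 TGF-β and BMP targets ID1 (1.35), SKIL (0.92), SMAD7 (0.80) and ID2 (0.61) rose and 0 fell (median 0.33), and the ligand TGFB1 rose by 1.03. ID1 stood at 9.38 and 9.46 with GSK-J4, against 8.07 and 8.06 with DMSO. Of 17 clock genes RORA (1.91), CIART (1.78), NFIL3 (0.88) and BHLHE41 (0.84) rose and 0 fell (median 0.34), though BHLHE41 was not above background in either group and CIART was above it on 1 of 2 DMSO arrays. The MAPK antagonists SPRY4 and SPRY2 rose by 0.80 and 0.78 among 18 feedback genes (0 fell, median 0.09), the WNT antagonist DKK1 fell by 1.14 among 21 Notch and WNT targets (0 rose, median -0.04), and IRF1 rose by 1.33 among 24 interferon genes (0 fell, median -0.05). Of 25 p53 targets TNFRSF10B (1.29), a death receptor that CHOP also induces, rose with SESN2, CDKN1A and MDM4 (0.75), and TIGAR fell by 0.99 (median 0.00). Of 17 immediate early genes 0 passed by limma, 1 had an unadjusted p under 0.05, and 2 passed with the 4 arrays of the comparison (median 0.08). Of all 17687 genes 3008 reached that p, and 1908 passed with the 4 arrays.

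Large complexes differed slightly, and few of their members passed. Over all 17687 genes, for comparison, 28.6% were lower and 25.5% higher without overlap. An unadjusted p under 0.05 by limma was found for 3008 of them, and 1038 rose and 870 fell with the 4 arrays. Of 28 proteasome subunits 0 passed by limma, 11 were lower at an unadjusted p under 0.05 and 8 fell with the 4 arrays of the comparison, while 24 had both GSK-J4 arrays below both DMSO arrays (median -0.34, range -0.64 for PSMD2 to 0.21 for PSMD8). Of 68 respiratory chain and ATP synthase subunits 0 passed, 13 were lower at an unadjusted p under 0.05, 6 fell with the 4 arrays, and 52 were lower without overlap (median -0.20). Of 74 mitochondrial ribosomal proteins MRPL40, MRPL50, MRPS7 and MRPL18 fell, by 0.77 to 0.61, and 43 were lower without overlap (median -0.16). Cytosolic ribosomal proteins lay the other way, with 32 of 52 higher without overlap (median 0.09), and the 2 that fell, RPS27L and RPL26L1, are paralogs of the core subunits. Under quantile normalization 21 cytosolic ribosomal proteins were higher and 9 lower without overlap, against 4474 and 5171 of all 17687 genes, and the median was 0.03. The medians of proteasome, respiratory chain and mitochondrial ribosomal lists were -0.34, -0.22 and -0.16 under that scaling.

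**Figure D4:**
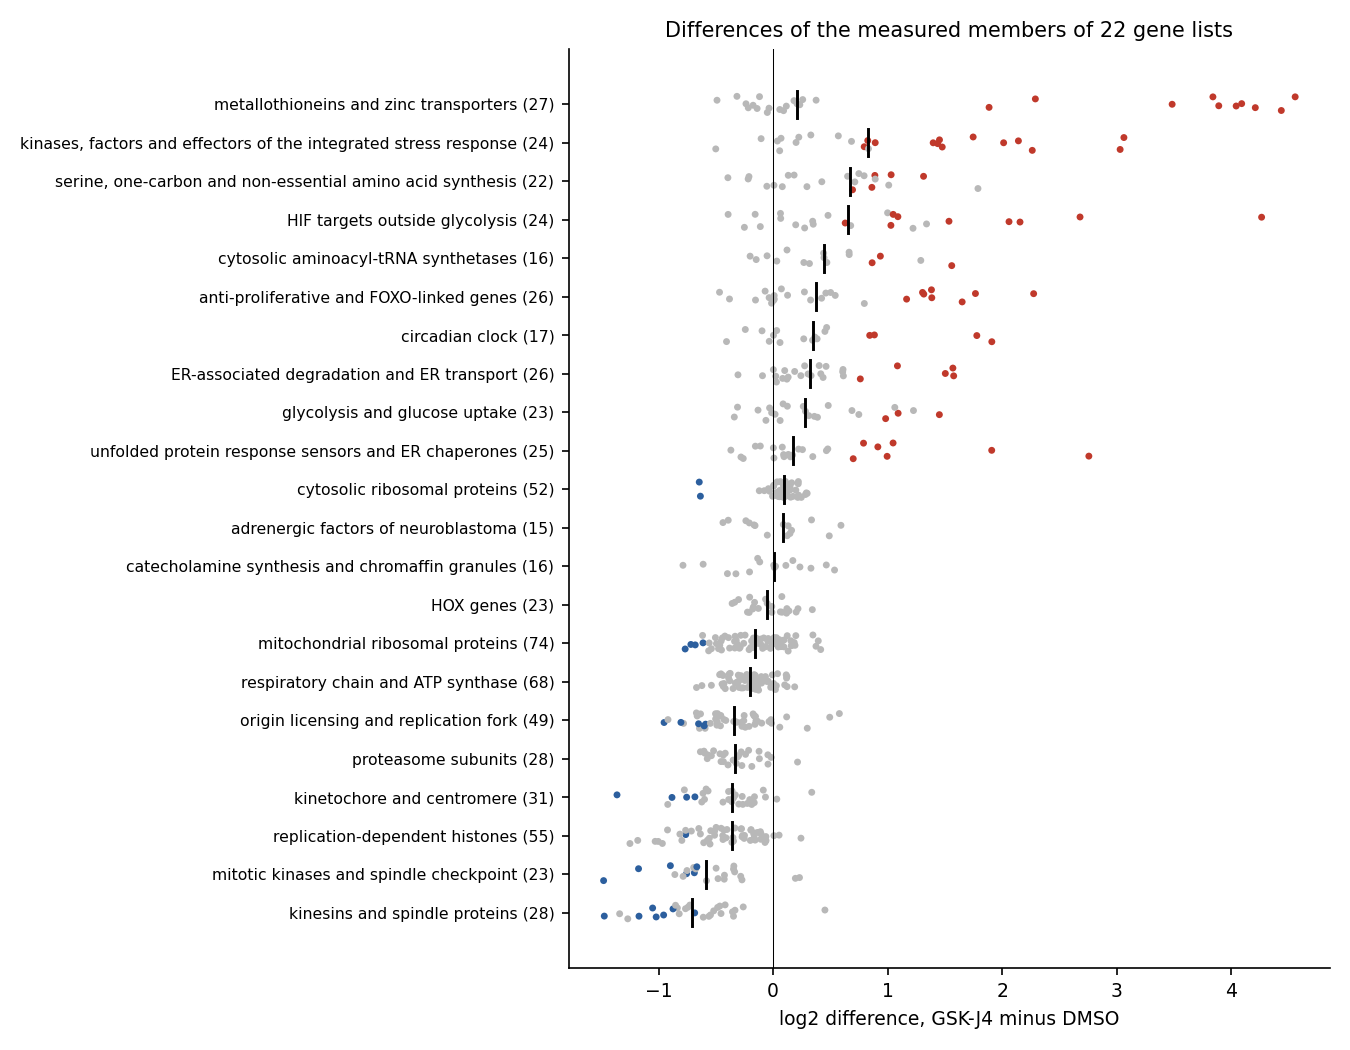
Each point is a measured gene of a list, placed by its log2 difference, GSK-J4 minus DMSO, with red for genes that rose, blue for genes that fell and grey for those that did not pass; black bars are list medians and list sizes are in parentheses. List medians run from 0.83 for the integrated stress response to -0.71 for kinesins and spindle proteins, while the first list splits into 9 metallothioneins at 2.29 or above, SLC30A1 at 1.89 and the rest at 0.38 or below.

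Chromatin genes related to the drug target passed in some lists and not in others. The share was 18.2% of JmjC demethylases, 14.3% of PRC1 and other polycomb genes and 8.3% of PRC2 subunits. Over all genes it was 3.7%. Of 22 JmjC demethylases KDM3A, a HIF target that acts on lysine 9 of histone H3, stood at 6.98 and 7.12 with GSK-J4, against 4.67 and 5.12 with DMSO (4.45-fold, SE 0.22 log2, adjusted p = 0.00254). KDM7A and KDM4A rose by 0.89 and 0.88 and KDM8, above background on 1 of 2 GSK-J4 arrays, fell by 0.80 (list median 0.21). Of 20 TET and other 2-oxoglutarate dioxygenases 0 passed by limma, 5 were higher at an unadjusted p under 0.05 and 2 rose with the 4 arrays (median 0.18). Among 12 PRC2 subunits PHF1 rose by 0.61 and 0 fell (median -0.09), with EZH2, the methyltransferase, at 8.90 and 8.99 against 8.88 and 8.95. SUZ12 differed by -0.20 without overlap, with an SE of 0.29 on 8 arrays and SDs of 0.051 and 0.03 within the GSK-J4 and DMSO groups. PCGF1 (0.90) and PHC3 (0.63) rose among 14 PRC1 and other polycomb genes (0 fell, median 0.04). Of 23 HOX genes, classical targets of lysine 27 methylation, 0 passed by limma and 1 was higher and 1 lower at an unadjusted p under 0.05, with 0 calls on the 4 arrays (median -0.05). Among all 17687 genes 3008 were under that p, and 1908 passed with the 4 arrays.

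Neuroblastoma identity genes had list medians near 0. Of 15 adrenergic transcription factors 0 passed by limma, 3 were higher and 1 lower at an unadjusted p under 0.05, and 2 rose and 1 fell with the 4 arrays (median 0.09). TH, the first enzyme of catecholamine synthesis, stood at 9.16 and 9.14 with GSK-J4, against 9.19 and 9.11 with DMSO. For 16 catecholamine and chromaffin granule genes the counts were 0 by limma, 1 higher and 3 lower at an unadjusted p under 0.05, and 2 rises and 2 falls with the 4 arrays (median 0.01). The counts over all 17687 genes were 3008 under that p, and 1038 rises and 870 falls with the 4 arrays. Of neuronal genes single members passed, in both directions, while 3.7% of all genes passed. The GABA receptor subunit gene GABRA4 fell, with 4.53 and 4.65 against 6.59 on both DMSO arrays, and since it was not above background with GSK-J4 it was at least 3.30-fold lower (adjusted p = 0.015). Among 34 transmitter receptor genes the acetylcholine receptor subunit gene CHRNA5 also fell, by 0.57, and GABBR1, of the GABA-B receptor, rose by 0.69 (median -0.03). LRRTM1, a synaptic adhesion protein, fell to 7.69 and 7.66, against 9.0 and 8.93 (2.45-fold lower), and GPR22, an orphan receptor, was at least 1.5-fold lower.

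Among the genes that passed in the opposite direction, KCNT2, a sodium-activated potassium channel, stood at 9.29 and 9.39 with GSK-J4, against 7.42 and 7.44 with DMSO (3.75-fold, adjusted p = 0.00054). The sodium channel genes SCN9A and SCN8A rose by 0.94 and 0.84, SCN8A being above background on 1 of 2 DMSO arrays, so that 3 of 30 voltage-gated channels rose and 0 fell (median 0.04). SYT4 (1.10), SYT5 (0.94) and RIMS2 (0.87), genes of vesicle release, rose among 23 (0 fell, median 0.06), as did the peptide hormone gene CRH (0.87, 1 of 16 neuropeptides, 0 fell). In the cytoskeleton the intermediate filament gene PRPH rose by 0.85 and the neurofilament gene NEFH fell by 0.93, among 25 genes of neurites and growth cones (median 0.14). Of 40 axon guidance genes 0 passed by limma, 5 were higher and 3 lower at an unadjusted p under 0.05, and 6 rose and 4 fell with the 4 arrays (median 0.06). Over all 17687 genes 3008 had such a p, and 1038 rose and 870 fell with the 4 arrays. LAMB1, a laminin chain, rose by 0.86 as the only call among 36 mesenchymal and matrix genes (median -0.04), and the collagen receptor DDR2 by 0.96 among 25 receptor tyrosine kinases (0 fell, median 0.05).

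Further genes among the 20 largest changes in each direction belonged to no list. ULBP1, a stress-induced ligand of natural killer cells, stood at 7.82 and 8.44 with GSK-J4, against 5.71 and 5.10 with DMSO (6.57-fold, adjusted p = 0.00256). ACTA2, smooth muscle actin, had 8.86 and 9.04, against 6.42 and 6.76 (5.12-fold). CREBRF, a regulator of CREB3 factors, was above background only with GSK-J4 and at least 6.59-fold higher. The sulfotransferase gene HS3ST2 fell to 6.23 and 6.32, against 7.82 and 7.84 (2.93-fold lower), and ADAMTS1, a secreted protease, to 6.67 and 6.59, against 7.97 on both DMSO arrays (2.54-fold lower). CHAC2, the constitutive relative of CHAC1, fell by 1.35 while CHAC1 rose. FAM72A, FAM72B, FAM72C and FAM72D, near-identical copies on chromosome 1, fell by 1.57, 1.65, 1.45 and 1.48, so that 1 transcript could reach several of their probe sets.

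In total 15 called genes were above background on both GSK-J4 arrays and on no DMSO array, and 9 the other way. Besides COXFA4L2, CREBRF and SLC1A4 the first kind held CSTA, a protease inhibitor (at least 2.56-fold), BDKRB2, the bradykinin receptor (at least 1.94-fold), AFF3 (at least 1.87-fold), PEX5L (at least 1.63-fold) and TCP11L2 (at least 1.52-fold). The other kind held, besides GABRA4 and GPR22, POP5, a subunit of RNase P (at least 2.28-fold lower), SSPN (at least 1.81-fold), NABP1 (at least 1.78-fold), the protease gene ADAMTS4 (at least 1.57-fold), FAM30A (at least 1.49-fold) and RBPMS2 (at least 1.38-fold). Of 803 genes with a mean of at least 10, 36 passed, of which 24 rose and 12 fell. Besides MT2A, MT1X, MT1L and MT1B, WARS1 was among those that rose (1.56), and among those that fell were the tubulin gene TUBB4B (0.89), the nuclear import genes KPNA2 (0.65) and RANBP1 (0.64), the splicing factor gene SRSF5 (0.68) and PRDX1, a peroxidase (0.79), as sizes of the fall on the log2 scale.

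Some of the largest differences did not pass. In total 44 genes differed by at least 1 log2 without passing, on all 44 the arrays of the groups did not overlap, and 43 passed with the 4 arrays of the comparison. On 42 of them the KDM6B siRNA arrays, which enter only the shared spread, lay over 0.5 log2 apart. The share of all genes that far apart was not counted. Over all genes the SD of the difference between replicates was 0.472 for KDM6B siRNA, against 0.187 to 0.226 in the other groups. The 44 genes were picked for a large difference that missed a test on the shared spread, so wide spread in some group was likely. Whether they differed in this from other genes was not tested. SLC7A11, the cystine importer, stood at 9.58 and 9.66 with GSK-J4, against 6.63 and 6.70 with DMSO (difference 2.95, SE 0.86, adjusted p = 0.117), and its KDM6B siRNA arrays differed by 3.43. ASNS, asparagine synthetase, was at 11.17 and 11.22, against 9.39 and 9.42 (1.79, SE 0.43, adjusted p = 0.0643). The glucose carrier SLC2A1 (1.06), the one-carbon enzyme MTHFD2 (1.01), the hormone gene STC1 (1.34), the kinesin KIF20A (-1.34) and the mitotic gene CDCA3 (-1.72) were others. The 8-array counts of the amino acid, HIF, histone and mitotic lists above leave such genes out.

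Promoter motifs were counted for the 14250 genes with a RefSeq promoter, of which 544 passed, over windows of 250 bases before to 50 after the start. A match describes the letters and not a bound site. Of the metallothioneins that rose 4 had a promoter in the table, and all 4 held 2 or more metal response elements, 8 each in MT2A and MT1H, 4 in MT1X and 3 in MT1B, against 11.1% of all promoters. In the sequences above the pair of MT2A elements next to the start lies at -54 and -8. Of all genes that rose 12.1% held 2 or more, close to the share over all genes.

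The cell cycle homology region TTTGAA stood in 9 of the 18 fallen genes of the mitotic lists with a promoter, in 52.1% of the 96 such genes whether or not they fell, and in 12% of all promoters, so the share was no higher among the mitotic genes that fell than among all mitotic genes. Over all calls it stood in 16.7% of fallen and 8.53% of risen genes. The CCAAT box, which is also part of the ER stress element, was in 50.5% of fallen, 33.2% of risen and 36.4% of all promoters, and in 9 of 11 genes that rose in the ER lists. Both motifs stood together in 7 of the 18 fallen mitotic genes, against 4.97% of all promoters. The pair was not counted over all 96 mitotic promoters, so these values do not tie it to the falls. Alone, the CCAAT box was in 14 of the 18 and in 66.7% of the 96. E2F sites, searched as TTTGGCGC and TTTCCCGC, were in 4.90% of fallen, 1.47% of risen and 3.07% of all promoters.

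The C/EBP-ATF element was rare, in 2.35% of risen, 1.96% of fallen and 1.36% of all promoters. It was in 1 of 12 promoters of integrated stress response genes that rose. Its TGATGCAA form stood in CHAC1, AARS1, GOT1, HERPUD1, KCNT2 and IL20RB among genes that rose and in HMGN5 among those that fell. The TGATGAAA form stood in SLC7A1 and PACSIN2 among genes that rose and in CENPW, LRRTM1 and MANEAL among those that fell. The exact ER stress element was in 0.126% of all promoters and, among genes that passed, only in XBP1. The core ACGTG of the hypoxia response element, which overlaps the E-box CACGTG, was in 2 of 6 promoters of HIF targets that rose, 32.9% of all risen, 39.2% of fallen and 23.6% of all promoters, and BHLHE40 had 4 matches. The median GC content was 67.2% in promoters of risen genes, 63.3% in those of fallen genes and 63.0% over all.

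**Figure D5:**
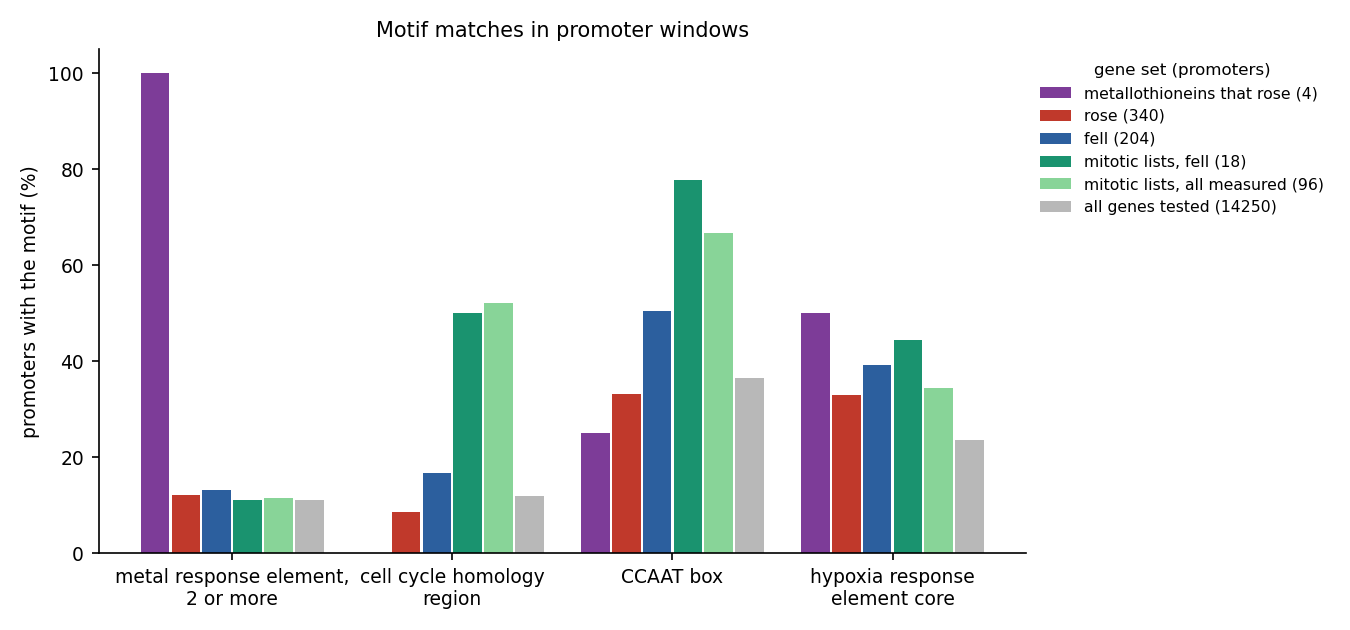
Bars give the percent of promoter windows with at least 1 match, or at least 2 for the metal response element, by gene set, with the number of promoters in parentheses in the legend. All 4 metallothionein promoters hold 2 or more metal response elements, and the cell cycle homology region is in 9 of 18 fallen and 52.1% of all measured mitotic genes, against 12% of all promoters.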

How the data were processed

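RNA was extracted with RNeasy, labelled from an input of 125 ng by the Whole Transcript Plus assay and hybridised to Clariom S arrays. The deposited table holds log2 values per probe set; per the labels, the submitters' processing notes name GCOS, and how the authors corrected background, normalized and summarized them was not given in the sources used. Array values ran from 1.69 to 13.4, and since the table holds no counts, the number of arrays limits precision. Of 21448 transcript probe sets 17709 had 1 symbol in the platform annotation, 0 had several and 3739 had none, giving 17687 genes, of which 20 had more than 1 probe set.

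Differences were GSK-J4 minus DMSO in limma 3.58.1 (R 4.3.3), fitted to all 8 arrays with 1 coefficient for each of 4 groups (4 residual and 4.18 prior degrees of freedom), with Benjamini-Hochberg adjustment over 17687 genes and a threshold of 0.05. The study's methods name a t test, which was run as an alternative. A gene counted as above background on an array if it exceeded the 95th percentile of 612 negative controls. A fold written as "at least" sets the mean of the group above background against the mean of that percentile over the arrays of the other group. The script was tested on simulated data.

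Members and lists were chosen with earlier results of these data known. Named genes were the 20 largest calls each way, up to 5 calls per list, 5 highly expressed calls each way (mean of at least 10) and 8 genes each way that crossed background. Other list members, and the genes that missed the threshold, were named after their values were seen. Alternatives changed the arrays in the fit, scaling, variance model, array weights, dim gene filter, probe set rule, replicate block and test, and left out each array.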

Additional observations from a re-analysis of the deposited data

Results flagged for a closer look

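Transcript probe sets to which the annotation gives no gene symbol entered none of the comparisons by gene. In a fit of all 21448 transcript probe sets 76 of these 3739 passed (2.03%), of which 61 rose and 15 fell with GSK-J4, against 3.22% of all transcript probe sets. They were noted because they carry a signal outside the genes described, and their identity is unnamed here.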

How the results depend on the processing

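With 2 arrays in each group, the number of calls depended on which arrays set the spread. Against 405 genes that rose and 249 that fell, the 4 arrays of the comparison alone gave 1038 and 870, the 6 arrays without KDM6B siRNA 1320 and 1217, and array weights 1119 and 997, each with all 654 genes among its calls. Leaving out 1 array gave 52 to 1320 genes that rose and 3 to 1217 that fell; the lowest counts came without GSK-J4 replicate 2 and the highest without either KDM6B siRNA array. The methods' t-test gave 1636 and 1688 unadjusted and 0 and 0 after Benjamini-Hochberg, where limma had 3008 genes at an unadjusted p under 0.05. With a minimum change of 1 log2 there were 154 and 49. Unnamed probe sets numbered 182 with 4 arrays.

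Replicate numbers of GSK-J4 and DMSO were shared, and the labels do not say whether equal numbers were handled together. The replicate differences correlated at r = 0.088 across 17687 genes, which cannot decide it, since noise between arrays also lowers this value. The main fit treated the arrays as unpaired. With the replicate block 171 rose and 54 fell, and 223 of these 225 genes were among the 654.

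Quantile normalization, median centring, limma-trend, robust eBayes, the filter on dim genes and the mean of probe sets gave 654 to 725 calls. Of the 179 named genes that passed, 96 kept their call with the replicate block and 39 to 44 without 1 GSK-J4 or DMSO array. Their direction changed in 0 cases, which most alternatives could not have altered. The arrays of the groups did not overlap on any called gene, so only another scaling or probe set rule could reverse a direction. Of the other named genes EZH2, at 0.03, turned to -0.004 without DMSO replicate 1 and -0.014 without GSK-J4 replicate 2, and ranged up to 0.08. The cause of these shifts was not tested.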

Other observations

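Some gene families outside the lists are given as values. They were picked after their values were seen, so their counts are descriptions. All 11 measured NPIP genes, a primate-specific family of nuclear pore interacting proteins spread over chromosome 16, rose, by 0.65 to 1.7 log2 (median 0.88). NPIPA1 stood at 9.51 and 9.77 with GSK-J4, against 8.05 and 7.83 with DMSO, and NPIPA3 at 9.64 and 9.62, against 8.08 and 8.17. The copies are close in sequence and 1 transcript could reach several probe sets. Of 7 golgins, tethers of Golgi vesicles, GOLGB1, GOLGA2 and GOLGA5 rose by 1.18, 0.87 and 0.72 and 0 fell (median 0.60).

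Of 11 proteins of RNase P and RNase MRP POP5 and POP1 fell, by 1.34 as measured (POP5 not above background with GSK-J4) and 1.08 (median -0.32). Both GSK-J4 arrays lay below both DMSO arrays for 10 of the 11, against 28.6% of all genes. POP1 had 7.07 and 7.18 with GSK-J4, against 8.19 and 8.21 with DMSO. Of 19 tRNA methyltransferase genes WDR4, TRMT10C and TRMT6 fell, by 1.05, 0.70 and 0.69, and 0 rose (median -0.13, highest 0.61). Without overlap 10 were lower and 4 higher, against 28.6% and 25.5% of all genes.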
